A study of Mus musculus with 6 samples.

Results

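The comparison described here set mouse podocytes (MPCs) given rFGF1ΔHBS under high glucose (HG) against MPCs under HG alone, by RNA-Seq. These groups hold 4 of the 6 libraries in the series, and the other 2, given rFGF1WT, entered the fit and its estimate of the spread. Tested were the loci whose mean FPKM over the 4 libraries was at least 1, which were 10554 of the 24469 loci in the deposited table. FPKM scale the fragments of a locus to transcript length and to the size of the library, so they allow levels of different genes to be set side by side.

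FGF1 is a secreted growth factor that binds FGF receptor tyrosine kinases, and heparan sulfate on the cell surface acts as a coreceptor that holds ligand and receptor together in the active dimer. The active receptor phosphorylates its adaptor FRS2, which feeds the RAS-ERK and PI3K-AKT pathways. ERK signalling is known for inducing ETS factors of the PEA3 group and cyclin D1, and also its own inhibitors, the Sprouty and Spred proteins and the MAP kinase phosphatases. In rFGF1ΔHBS the heparan sulfate binding site of human FGF1 is mutated, and rFGF1WT is the unmutated recombinant protein.

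MPCs are a conditionally immortalized mouse line that grows in interferon gamma and differentiates after its withdrawal. In all 6 libraries the cells were starved of serum for 12 h and then kept in 25 mM glucose for 12 h. The 2 HG libraries had no pretreatment, the 2 HG + rFGF1ΔHBS libraries had 100 ng/mL of rFGF1ΔHBS for 1 h before glucose, and the 2 HG + rFGF1WT libraries had the same dose of rFGF1WT. Because HG cells were not mock pretreated, the protein and the handling at pretreatment cannot be told apart, and cells at normal glucose were not analysed here. The labels do not say whether replicates came from separate cultures, so p-values measure the spread between these libraries, which may be technical.

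The label of the cells was checked against 23 podocyte markers, of which 12 were tested, 10 lay below the filter and *Tcf21* was not found in the table. Of the markers that define the cell type, *Nphs1*, which encodes nephrin, had 0.942 and 0.770 FPKM under HG and 0.638 and 0.618 FPKM with rFGF1ΔHBS. *Wt1* did not exceed 0.0731 FPKM in any of the 4. These genes were therefore absent or near 0 in MPCs, while *Podxl*, which encodes podocalyxin, had 16.7 and 17.6 FPKM under HG and 14.8 and 15.8 FPKM with rFGF1ΔHBS (adjusted p = 0.230). *Cdh16*, a cadherin of kidney tubules, reached 85.0 and 96.2 FPKM under HG and 68.4 and 72.2 FPKM with rFGF1ΔHBS, with an adjusted p of 0.0748. *Lrp2*, the tubular endocytic receptor megalin, had 28.5 and 26.9 FPKM under HG and 22.7 and 24.0 FPKM with rFGF1ΔHBS (adjusted p = 0.102). In such bulk libraries fewer cells of a type and less RNA per cell cannot be told apart. Both tubule genes were lower in the protein libraries without overlap, as the groups did not overlap at 57.3% of all tested loci, neither passed the test, and the other 8 tubule markers were below the filter or not found. *Pecam1* of endothelium and *Ptprc* of leukocytes stayed below 0.1 FPKM in each of the 4 libraries.

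The HG libraries held 181410 and 179594 FPKM in all and the rFGF1ΔHBS libraries 180071 and 182130, and since FPKM hold no fragment totals the depth behind a value is unknown. Over the tested loci, a description since loci do not vary independently, Pearson's r between log2(FPKM + 1) values was 0.918 between the HG replicates, 0.922 between the rFGF1ΔHBS replicates and 0.898 to 0.914 between libraries of the different groups. Replicates differed by over 2-fold on that scale at 541 loci (5.13%) under HG and 530 loci (5.02%) with rFGF1ΔHBS. At least 1 of the 4 libraries was listed at exactly 0 for 236 tested loci (2.24%), and because an exact 0 may reflect an estimate that failed, these loci are described apart. The tested loci nearest to the filter were *Hoxd4*, *Gm13033* and *Gpr39*, with means between 1.0005 and 1.0010 FPKM, and the loci just outside it were CT025660.2, *Rpl37rt* and *Gm10644*, with means of 0.9991 to 0.9994 FPKM.

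rFGF1ΔHBS changed a small share of the transcriptome in both directions. The ETS factors *Etv4* and *Etv5*, the cyclins *Ccnd1* and *Ccnd2* and osteopontin rose. So did 18 of 33 tested genes in a list of ribosome biogenesis, 8 of 26 in one of sterol and fatty acid synthesis and 5 of 14 listed actin isoforms and SRF targets. The proapoptotic gene *Bmf*, *Nucks1*, *Csf1r*, *Bmpr1a* and the merged locus of *Ifit2*, *Ifit3* and *Ifit3b* fell. log2(FPKM + 1) was tested with limma in 1 fit of all 6 libraries, and the threshold asked for 2-fold or more together with a p, adjusted by Benjamini-Hochberg, under 0.05. By this threshold 92 of 10554 loci (0.872%) differed, 46 higher and 46 lower with rFGF1ΔHBS (0.436% in each direction), and the libraries of the groups did not overlap at any of the 92, against 6047 of all tested loci (57.3%). By the adjusted p alone 648 loci (6.14%) passed, 349 higher (3.31%) and 299 lower (2.83%), and 556 of these changed by less than 2-fold. The median log2 fold change over all tested loci was -0.04. Another 343 loci differed by at least 2-fold in the mean without passing the adjusted p, and an unadjusted p under 0.05 was found for 2629 loci (24.9%).

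These calls rest on few libraries. With only the 4 libraries compared, 104 loci passed the threshold, 67 of the 92 among them, and 194 passed the adjusted p. Leaving out 1 library at a time kept between 43 and 67 of the 92 past the threshold, 43 without the first and 48 without the second HG library, and none of the 92 changed sign. An adjusted p under 0.05 held for 35 of the 92 whichever library was left out. Of 112 loci called in the gene lists below, 29 kept an adjusted p under 0.05 in the fit of 4 libraries, and 8 other list loci passed there. Whichever library was left out, 13 of the 112 kept it, namely *Etv5*, *Ccnd1*, *Ccnd2*, *Bmf*, *Epha2*, *Itga3*, *Spp1*, *Cyr61*, *Hmgcs1*, *Ccng1*, *Bmpr1a*, *Vcl* and *Nes*, so the other 99 lost their call in at least 1 of these fits. In each list the count of genes that rose or fell is to be read against the 3.31% and 2.83% of all tested loci. Log2 fold changes below refer to log2(FPKM + 1), so the change of genes at low FPKM is understated, and standard errors are those of limma.

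**Figure D1:**
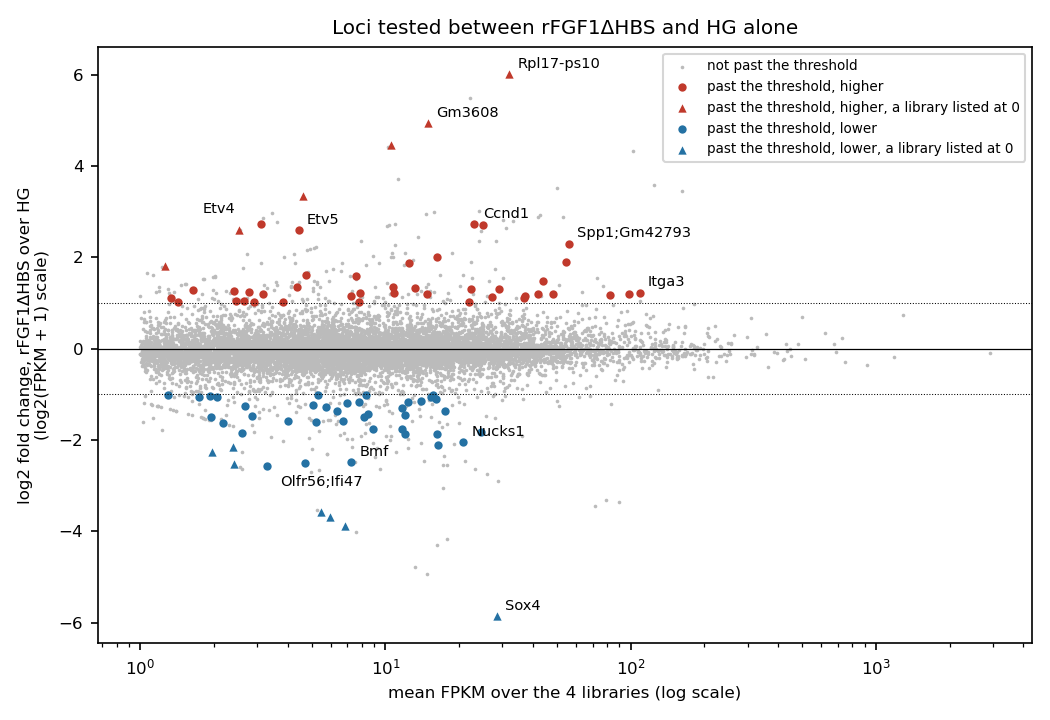
Each point is 1 of the 10554 tested loci, with its mean FPKM over the 4 libraries on a log axis and its log2 fold change of rFGF1ΔHBS over HG on the vertical axis, and dotted lines mark 2-fold. Coloured points are the 92 loci past the threshold, triangles among them the 13 with a library listed at 0. The grey points beyond 2-fold are loci that did not pass the adjusted p.

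ETS factors and a cyclin led the increases at loci that carry a gene name and had no library of the 4 at 0. An assembled locus without a gene name rose about as much, from 6.54 and 5.31 FPKM to 45.3 and 42.6 FPKM (log2 fold change 2.70, adjusted p = 0.00389). *Etv4*, a PEA3-group ETS factor (chr11:101769742-101785371, GRCm38), stood at 0.0580 and 0.0786 FPKM under HG and at 6.17 and 6.12 FPKM with rFGF1ΔHBS. Nearly absent under HG, it rose by 2.74 on the log2 scale (SE 0.18, adjusted p = 0.0118). *Etv5*, its close relative (chr16:22381309-22439719), had 0.486 and 0.578 FPKM under HG and 8.23 and 8.42 FPKM with rFGF1ΔHBS, a rise of 2.61 (SE 0.07, adjusted p = 0.00197). The third member of the ETS list to pass was *Elk3*, a ternary complex factor, which went from 10.2 and 10.8 FPKM to 14.9 in both libraries (log2 fold change 0.47, adjusted p = 0.0286). Thus 3 of 12 tested ETS genes rose and none fell. *Etv4* and *Etv5* passed the filter on mean FPKM only through the rFGF1ΔHBS libraries, in which they are high, so nothing is read from this share. *Elk3* lost its call in the fit of 4 libraries (adjusted p = 0.0663) and had up to 0.108 when a library was left out. The list median of 0.19 went down to 0.03 without the second HG library. The adjusted p of *Etv4* was 0.0540 to 0.0624 when any 1 of the HG or rFGF1ΔHBS libraries was left out, while that of *Etv5* stayed below 0.05 under every alternative.

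Of the inhibitors that ERK signalling induces, 1 phosphatase and 1 Spred protein passed. *Dusp5*, a nuclear phosphatase of ERK (chr19:53529109-53542431), had 1.34 and 1.16 FPKM under HG and 3.57 and 3.72 FPKM with rFGF1ΔHBS (log2 fold change 1.05, SE 0.08, adjusted p = 0.0142). *Spred3*, a membrane inhibitor of RAS activation, had 2.10 and 2.18 FPKM under HG and 6.41 and 4.54 FPKM with rFGF1ΔHBS (log2 fold change 1.03, SE 0.15, adjusted p = 0.0394). *Spred3* had an adjusted p of 0.154 and 0.138 without the first and the second HG library and 0.0930 in the fit of 4 libraries, where *Spred1* passed instead (log2 fold change 1.38, adjusted p = 0.0272, against 0.287 in the fit of 6). *Dusp5* kept its call there but had up to 0.0648 when a library was left out. *Dusp6*, the cytoplasmic ERK phosphatase, stood at 2.96 and 3.67 FPKM under HG, but its rFGF1ΔHBS libraries differed, with 9.90 and 26.3 FPKM, and its adjusted p was 0.0880. *Spry1* was also uneven, with 0.647 and 9.20 FPKM under HG and 15.7 and 28.7 FPKM with rFGF1ΔHBS (adjusted p = 0.220). *Spry4* lay below the filter, at 0.0568 and 0.0590 FPKM under HG against 1.58 and 1.69 FPKM with rFGF1ΔHBS, and was not tested. All 6 tested members of the Sprouty, Spred and Sef list and 7 of 8 tested MAP kinase phosphatases had a higher mean with rFGF1ΔHBS, with list medians of 0.88 and 0.55, against 44.1% of all tested loci with a higher mean.

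Promoter sequence was looked up for these genes in RefSeq, whose table for GRCm38.p6 gave the 250 bases before a start for 7535 tested genes, including 61 of the genes past the threshold. The windows of *Dusp5*, *Epha2*, *Etv5* and *Il33* are shown as examples of genes that rose past the threshold and hold one of the motifs searched, on either strand, which is in capitals. That of *Fam207a*, which also rose and holds a motif, is not shown. The SRF box was searched by set patterns that fix most of its letters, so other forms of the box stay in lower case. Each runs 5′ to 3′ along the gene's own strand, and bases that GENCODE counts to the gene itself were left out.
*Dusp5*, chr19:53528895-53529108, plus strand, with a box known to bind the serum response factor SRF, at -82 from the RefSeq start: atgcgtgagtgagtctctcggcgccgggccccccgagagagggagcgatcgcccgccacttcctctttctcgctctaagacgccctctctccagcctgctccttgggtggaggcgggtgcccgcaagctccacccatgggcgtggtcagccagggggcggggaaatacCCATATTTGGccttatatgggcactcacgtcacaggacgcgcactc
*Epha2*, chr4:141300971-141301220, plus strand, with a cyclic AMP response element at -33: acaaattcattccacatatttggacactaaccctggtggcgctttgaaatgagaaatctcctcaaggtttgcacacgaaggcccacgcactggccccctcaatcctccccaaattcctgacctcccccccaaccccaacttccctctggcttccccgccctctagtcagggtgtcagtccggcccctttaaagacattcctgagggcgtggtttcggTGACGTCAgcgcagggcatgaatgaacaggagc
*Etv5*, chr16:22439720-22439820, minus strand, with a forkhead (FOXO) motif at -183: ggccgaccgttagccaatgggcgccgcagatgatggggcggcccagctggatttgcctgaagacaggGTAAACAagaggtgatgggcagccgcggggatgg
*Il33*, chr19:29924863-29925112, plus strand, with a forkhead (FOXO) motif, here read on the opposite strand, at -162: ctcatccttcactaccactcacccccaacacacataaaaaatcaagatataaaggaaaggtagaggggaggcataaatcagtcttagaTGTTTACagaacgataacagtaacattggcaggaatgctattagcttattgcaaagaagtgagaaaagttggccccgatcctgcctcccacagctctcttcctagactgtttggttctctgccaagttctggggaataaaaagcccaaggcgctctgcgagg

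The motifs were rare among the changed genes, as they were among all. The ETS motif CCGGAAGT was present in 1 of 27 promoters of genes past the threshold and higher, that of *Fam207a*, in 1 of 34 of those lower and in 6.87% of all 7535. The AP-1 motif TGANTCA was found in 0 of 27, 2 of 34 and 3.73%, the cyclic AMP response element TGACGTCA in 1 of 27, 1 of 34 and 3%, and the forkhead motif GTAAACA in 2 of 27, 0 of 34 and 2.12%. The patterns searched for the SRF box were matched in 1 of 27, 2 of 34 (*Ing2* and *Megf6*) and 0.677%. They miss other forms of the box. Their open letters also let in the stretch of *Megf6*, which holds C and G where the box of *Dusp5* holds only A and T. These shares therefore count matches to the patterns and not all SRF boxes. A match of letters is a description of these windows and was not tested as a site.

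The D-type cyclins *Ccnd1* and *Ccnd2*, which carry cells from G1 towards S phase, rose. *Ccnd1* (chr7:144929931-144939925) had 5.53 and 5.05 FPKM under HG and 39.1 and 42.5 FPKM with rFGF1ΔHBS, a log2 fold change of 2.73 (SE 0.07, adjusted p = 0.00159). *Ccnd2* (chr6:127125162-127152193) had 3.33 and 3.27 FPKM under HG and 11.9 FPKM in both rFGF1ΔHBS libraries, a log2 fold change of 1.59 (SE 0.06, adjusted p = 0.00389). Both stayed below an adjusted p of 0.05 under every alternative, and they were the only 2 of 19 tested G1 cyclins, CDKs and CDK inhibitors to pass in either direction. Among 24 genes of DNA replication and mitosis, *Rrm2*, the ribonucleotide reductase subunit, rose from 58.3 and 55.2 FPKM to 78.1 and 75.3 FPKM (log2 fold change 0.43, adjusted p = 0.0263). *Bub1b*, of the spindle checkpoint, fell from 35.7 and 34.0 FPKM to 26.6 and 26.0 FPKM (log2 fold change -0.39, adjusted p = 0.0295). *Rrm2* and *Bub1b* had adjusted p of 0.0664 and 0.0748 in the fit of 4 libraries, and the other 22 did not pass. *Mki67* had 61.4 and 60.98 FPKM under HG and 58.7 and 57.3 FPKM with rFGF1ΔHBS (log2 fold change -0.08, SE 0.06), and *Pcna* had 33.0 and 32.4 FPKM under HG and 33.2 and 31.4 FPKM with rFGF1ΔHBS (log2 fold change -0.02, SE 0.05).

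Further large increases covered a matrix protein, redox, growth and p53-related genes. The locus of *Spp1*, which encodes osteopontin and is merged in the table with *Gm42793* (chr5:104435118-104441050), rose from 18.7 and 17.8 FPKM to 93.6 and 94.0 FPKM (log2 fold change 2.30, SE 0.05, adjusted p = 0.00106). *Txnrd3*, a thioredoxin reductase, rose from 5.93 and 5.82 FPKM to 27.1 and 26.0 FPKM (log2 fold change 2.004, adjusted p = 0.00389). *Ccng1*, a cyclin G and p53 target, rose from 23.2 and 21.5 FPKM to 87.2 and 85.6 FPKM (log2 fold change 1.90, adjusted p = 0.00389). The libraries of each of these genes lay close together within a group and far apart between groups. *Mycn*, a MYC-family transcription factor, rose from 1.82 and 1.80 FPKM to 7.03 and 8.26 FPKM (log2 fold change 1.62, adjusted p = 0.00800). *F2rl1*, a protease-activated receptor, rose from 23.4 and 22.0 FPKM to 67.4 and 63.5 FPKM (log2 fold change 1.49, adjusted p = 0.00389). The locus that merges *Mical2*, an actin-oxidizing enzyme, with AC132392.1 and *Micalcl* rose from 5.57 and 5.68 FPKM to 15.5 and 16.3 FPKM (log2 fold change 1.35, adjusted p = 0.00401).

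The rest of the 15 largest increases of loci with a gene name had wider ranges or smaller changes. *Phlda1*, a pleckstrin homology protein induced by growth factors, rose by 1.31 on the log2 scale (adjusted p = 0.0166) and *Srm*, the spermidine synthase, by 1.299 (adjusted p = 0.0147). *Slc25a37*, the mitochondrial iron importer mitoferrin, had 3.51 and 6.22 FPKM under HG against 19.4 and 20.5 FPKM with rFGF1ΔHBS (log2 fold change 1.88, SE 0.31, adjusted p = 0.0487). *Slc25a37* lost its call whichever library was left out, with a log2 fold change of 1.54 to 2.22 over the alternatives. *Phlda1* and *Srm* lost theirs without the second rFGF1ΔHBS library. *Il34* and *Fam207a*, the remaining 2 of the 15, are described with the cytokines and with the difference between the proteins. Of the 15, 9 kept an adjusted p under 0.05 whichever library was left out.

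**Figure D2:**
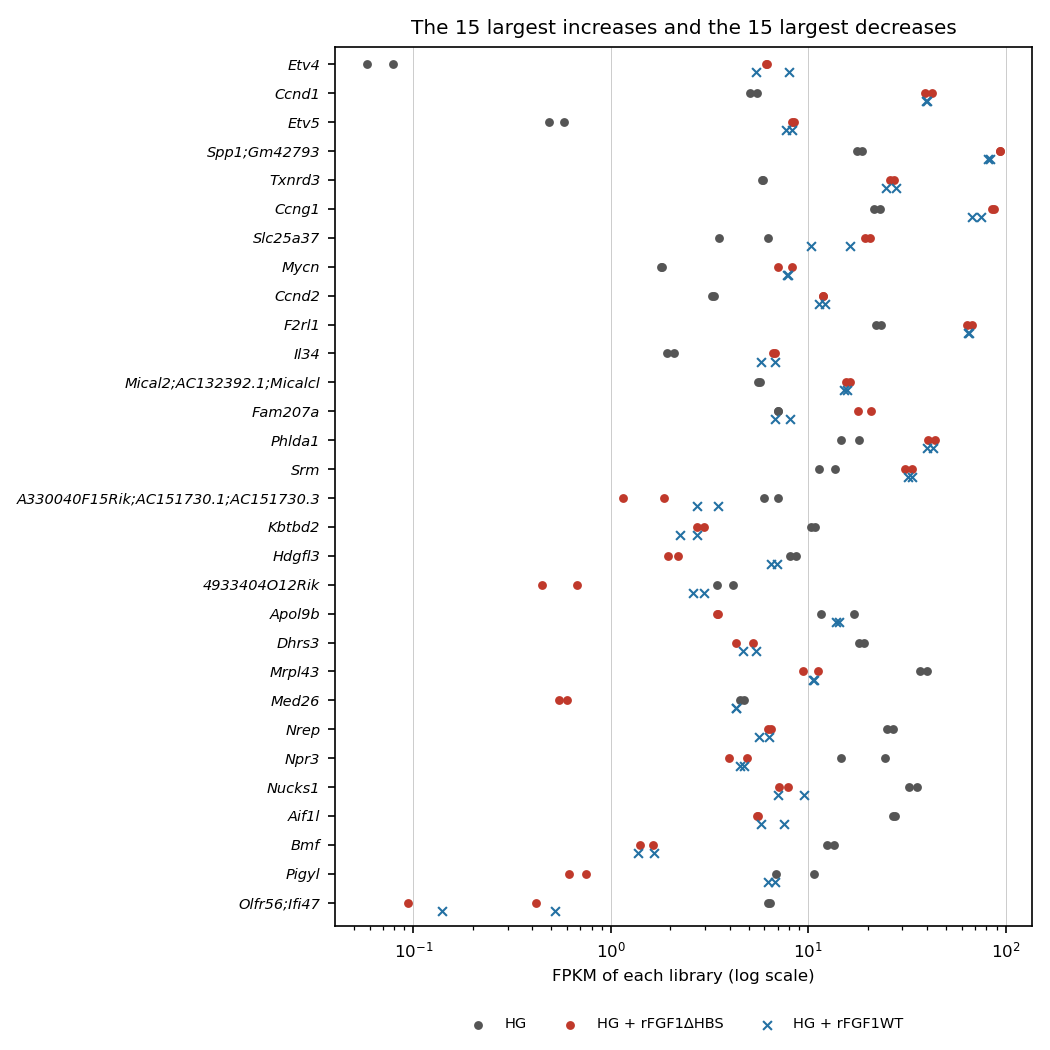
FPKM of each library on a log axis for the 15 largest increases (top) and the 15 largest decreases (bottom) among threshold loci with a gene name and with no library of the 4 at 0; grey points are HG, red points HG + rFGF1ΔHBS and blue crosses HG + rFGF1WT. Grey and red never overlap in a row, and *Etv4* moves furthest, from under 0.1 FPKM to 6.17 and 6.12 FPKM.

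Among the decreases was *Bmf*, a BH3-only protein that promotes apoptosis (chr2:118528757-118549687). It had 13.6 and 12.5 FPKM under HG and 1.41 and 1.63 FPKM with rFGF1ΔHBS, a log2 fold change of -2.48 (SE 0.10, adjusted p = 0.00389), and stayed below 0.05 under every alternative. The BH3-only gene *Bcl2l11* (Bim) also fell, from 5.49 and 5.05 FPKM to 3.04 and 2.57 FPKM (log2 fold change -0.72, adjusted p = 0.0338). *Bax*, an apoptotic effector merged in the table with *Gm45808* and *Dhdh*, rose from 3.99 FPKM in both HG libraries to 5.49 and 5.44 FPKM (log2 fold change 0.37, adjusted p = 0.0466). Hence 1 of 15 tested genes of the BCL2 family rose and 2 fell, but only *Bmf* kept its call in the fit of 4 libraries, where *Bax* had an adjusted p of 0.0878 and *Bcl2l11* 0.0756. *Bcl2l1*, which encodes the survival protein BCL-XL, had 11.7 and 7.88 FPKM under HG and 16.6 and 17.7 FPKM with rFGF1ΔHBS without passing the test (adjusted p = 0.0916).

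The other large decreases belonged to genes of varied function. The locus that merges the olfactory receptor *Olfr56* with the interferon-inducible GTPase *Ifi47* went from 6.40 and 6.27 FPKM to 0.0937 and 0.417 FPKM (log2 fold change -2.56, SE 0.20, adjusted p = 0.0152). *Aif1l*, an actin-bundling protein, fell from 27.5 and 26.9 FPKM to 5.52 and 5.54 FPKM (log2 fold change -2.11, adjusted p = 0.00884). *Nucks1*, a chromatin protein (chr1:131910534-131936321), fell from 32.3 and 35.6 FPKM to 7.87 and 7.10 FPKM (log2 fold change -2.04, adjusted p = 0.0142). In each case both rFGF1ΔHBS libraries lay far below both HG libraries. *Mrpl43*, of the mitochondrial ribosome, fell from 40.1 and 37.0 FPKM to 9.36 and 11.2 FPKM (log2 fold change -1.81, adjusted p = 0.00800). *Nrep* fell from 26.7 and 25.2 FPKM to 6.505 and 6.24 FPKM (log2 fold change -1.87, adjusted p = 0.00401). *Dhrs3*, a retinal reductase, fell from 18.005 and 19.3 FPKM to 4.32 and 5.26 FPKM (log2 fold change -1.77, adjusted p = 0.0118).

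*Npr3*, the natriuretic peptide clearance receptor, had HG libraries that differed, at 24.4 and 14.6 FPKM, against 3.98 and 4.90 FPKM with rFGF1ΔHBS (log2 fold change -1.88, adjusted p = 0.0335). *Apol9b*, an apolipoprotein L, had 17.0 and 11.7 FPKM under HG and 3.49 and 3.47 FPKM with rFGF1ΔHBS (log2 fold change -1.76, adjusted p = 0.0207), and fragments of its near-identical neighbour *Apol9a* may be divided between them. *Kbtbd2*, a substrate adaptor of a ubiquitin ligase, had a log2 fold change of -1.59 and fell (adjusted p = 0.00884), as did the merged locus of *A330040F15Rik* (adjusted p = 0.0256) and, by 1.62, *4933404O12Rik* (adjusted p = 0.0158). *Pigyl* (-2.51), *Med26* (-1.84) and *Hdgfl3* (-1.61) complete the 15 largest decreases of loci with a gene name. Of the 15, 5 kept an adjusted p under 0.05 whichever library was left out. *Nucks1* and *Olfr56;Ifi47* lost the call when any 1 of the HG or rFGF1ΔHBS libraries was left out, with adjusted p of up to 0.0669 and 0.0736, and *Aif1l* had up to 0.0569.

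Few genes of FGF receptors and of heparan sulfate passed. The locus that merges *Fgfr2* with *Ctbp2* fell from 11.1 and 12.3 FPKM to 7.40 and 7.41 FPKM (log2 fold change -0.60, adjusted p = 0.0251), which cannot be assigned to either gene. *Gab1*, a docking protein downstream of FRS2, fell from 10.2 and 10.7 FPKM to 7.93 and 7.49 FPKM (log2 fold change -0.40, adjusted p = 0.0407). *Fgf7*, a ligand of FGFR2, rose from 1.18 and 1.13 FPKM to 2.28 and 2.36 FPKM (log2 fold change 0.62, adjusted p = 0.0419). *Fgfr1* had 4.64 and 5.42 FPKM under HG and 6.11 and 6.44 FPKM with rFGF1ΔHBS (adjusted p = 0.152), and *Fgfr3* had 6.21 and 6.65 FPKM against 4.65 and 4.32 FPKM (adjusted p = 0.0550). *Frs2* had 11.0 and 10.9 FPKM under HG and libraries of 2.75 and 9.57 FPKM with rFGF1ΔHBS (adjusted p = 0.353). In all, 1 of 14 genes of the FGF receptor list rose and 2 fell, the merged locus of *Fgfr2* counted among them, at a list median of -0.09, beside 3.31% and 2.83% of all tested loci. None of the 3 passed in a fit of only the 4 libraries compared.

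Of 21 tested heparan sulfate proteoglycans and enzymes, 1 rose (4.76%) and 2 fell (9.52%), beside 3.31% and 2.83% of all tested loci. *Sdc4* (syndecan 4) rose from 77.5 and 84.0 FPKM to 114 and 122 FPKM (log2 fold change 0.55, adjusted p = 0.0304). *Gpc1* (glypican 1) fell from 25.9 and 25.2 FPKM to 14.7 and 16.4 FPKM (log2 fold change -0.69, adjusted p = 0.0206), and *Sdc3* fell from 5.30 and 5.37 FPKM to 2.79 and 3.07 FPKM (log2 fold change -0.69, adjusted p = 0.0215). No tested enzyme of heparan sulfate synthesis or editing passed, and these 3 calls were also lost in the fit of 4 libraries.

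Other receptor tyrosine kinases moved in both directions, 2 of 11 tested rising and 3 falling. *Egfr* rose from 17.3 and 19.0 FPKM to 27.6 and 27.4 FPKM (log2 fold change 0.57, adjusted p = 0.0220) and *Met*, the receptor of hepatocyte growth factor, from 21.8 and 22.4 FPKM to 32.4 and 31.5 FPKM (log2 fold change 0.51, adjusted p = 0.0212). *Csf1r*, the receptor of CSF1 and IL34, fell from 9.56 and 10.7 FPKM to 3.93 and 3.76 FPKM (log2 fold change -1.19, adjusted p = 0.0142). The collagen receptor *Ddr1* fell by 0.95 (adjusted p = 0.0281) and *Erbb3* by 0.81 (adjusted p = 0.0307). Of the EGF receptor ligands and inhibitors, 1 of 7 passed: *Errfi1*, a feedback inhibitor of EGFR, rose from 6.89 and 6.42 FPKM to 13.6 and 14.0 FPKM (log2 fold change 0.95, adjusted p = 0.0228). Of 13 Eph receptors and ephrins, *Epha2* rose from 22.6 and 22.2 FPKM to 50.8 and 52.4 FPKM (log2 fold change 1.17, SE 0.05, adjusted p = 0.00389), *Efnb2* rose by 0.49 (adjusted p = 0.0354) and *Efna4* fell by 0.46 (adjusted p = 0.0378). In the fit of 4 libraries *Csf1r*, *Errfi1* and *Epha2* passed, the first 2 with adjusted p of up to 0.0684 and 0.0983 when a library was left out, while *Egfr* had an adjusted p of 0.0598, *Met* and *Erbb3* 0.0559, *Ddr1* 0.0756, *Efnb2* 0.0826 and *Efna4* 0.0630. The rise of *Epha2* held under every alternative, and its promoter is the one with the cyclic AMP response element shown above.

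Immediate early genes, which respond to growth factors within the first hour, were read here 12 h after glucose. Of 15 tested, only *Ier3* passed, with 14.2 and 18.8 FPKM under HG and 29.5 and 32.1 FPKM with rFGF1ΔHBS (log2 fold change 0.88, adjusted p = 0.0474). In the fit of 4 libraries *Ier3* did not pass (adjusted p = 0.102), and *Junb*, which was listed at 0 with rFGF1ΔHBS, passed as lower (adjusted p = 0.0126). *Myc* had 7.11 and 9.52 FPKM under HG and 15.97 and 16.5 FPKM with rFGF1ΔHBS (adjusted p = 0.0530), and *Fosl1* had 2.23 and 2.63 FPKM against 4.70 and 4.63 FPKM (adjusted p = 0.0623). *Fos* had 1.07 and 1.39 FPKM under HG and 1.14 and 1.48 FPKM with rFGF1ΔHBS (log2 fold change 0.05, SE 0.24).

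Of the lists with at least 10 tested members, ribosome biogenesis had the largest share of genes that rose. Of its 33 genes, which encode nucleolar proteins that transcribe, cut, modify and assemble ribosomal RNA, 18 rose (54.5%) and none fell, against 3.31% and 2.83% of all tested loci. The list median was 0.53, and 30 of the 33 were higher with rFGF1ΔHBS, against 44.1% of all tested loci. *Rrp12*, needed for export of the small subunit, rose from 6.20 and 6.43 FPKM to 12.6 and 13.7 FPKM (log2 fold change 0.95, SE 0.07, adjusted p = 0.0142). *Nop2*, a ribosomal RNA methyltransferase, rose from 20.04 and 19.6 FPKM to 34.5 and 34.0 FPKM (log2 fold change 0.76, adjusted p = 0.0128), and *Nop56*, of the box C/D particle, from 23.4 and 24.3 FPKM to 40.3 and 37.6 FPKM (log2 fold change 0.68, adjusted p = 0.0164). *Gnl3* (nucleostemin) rose by 0.78 (adjusted p = 0.0217) and *Polr1a*, the large subunit of RNA polymerase I, by 0.53 (adjusted p = 0.0265). Each of the 18 rose by less than 1 on the log2(FPKM + 1) scale. These counts depend on the genes listed, and 2 genes of ribosome assembly outside the list went opposite ways. *Rrp7a* fell (log2 fold change -0.49, adjusted p = 0.0251) and *Fam207a* rose (log2 fold change 1.34, adjusted p = 0.0158), as described below. The summed FPKM of the list was 611.1 and 611.4 under HG and 839.9 and 809.1 with rFGF1ΔHBS. In the fit of only 4 libraries *Nop2* and *Rrp12* alone of the 18 kept their call, *Rrs1*, which is not one of the 18, passed as well, and 0 or 1 passed without a HG or an rFGF1ΔHBS library, but the list median stayed between 0.52 and 0.59 in each of these fits and under every other alternative.

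Of 26 tested genes of sterol and fatty acid synthesis 8 rose (30.8%) and none fell, and the list median was 0.35. A higher mean was found for 25 of the 26, against 44.1% of all tested loci. *Hmgcs1*, which makes HMG-CoA (chromosome 13), rose from 116 and 112 FPKM to 216 and 209 FPKM (log2 fold change 0.89, SE 0.05, adjusted p = 0.00879). *Sqle*, the squalene epoxidase, rose from 30.6 and 28.6 FPKM to 42.1 and 43.3 FPKM (log2 fold change 0.51, adjusted p = 0.0228), *Idi1* by 0.64 (adjusted p = 0.0334), and *Fasn*, the fatty acid synthase, from 97.0 and 92.3 FPKM to 128 and 143 FPKM (log2 fold change 0.51, adjusted p = 0.0344). *Nsdhl*, *Mvk* and *Scd2* rose by 0.35 to 0.43. *Hmgcs1* was the only one of the 8 to pass in the fit of 4 libraries.

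**Figure D3:**
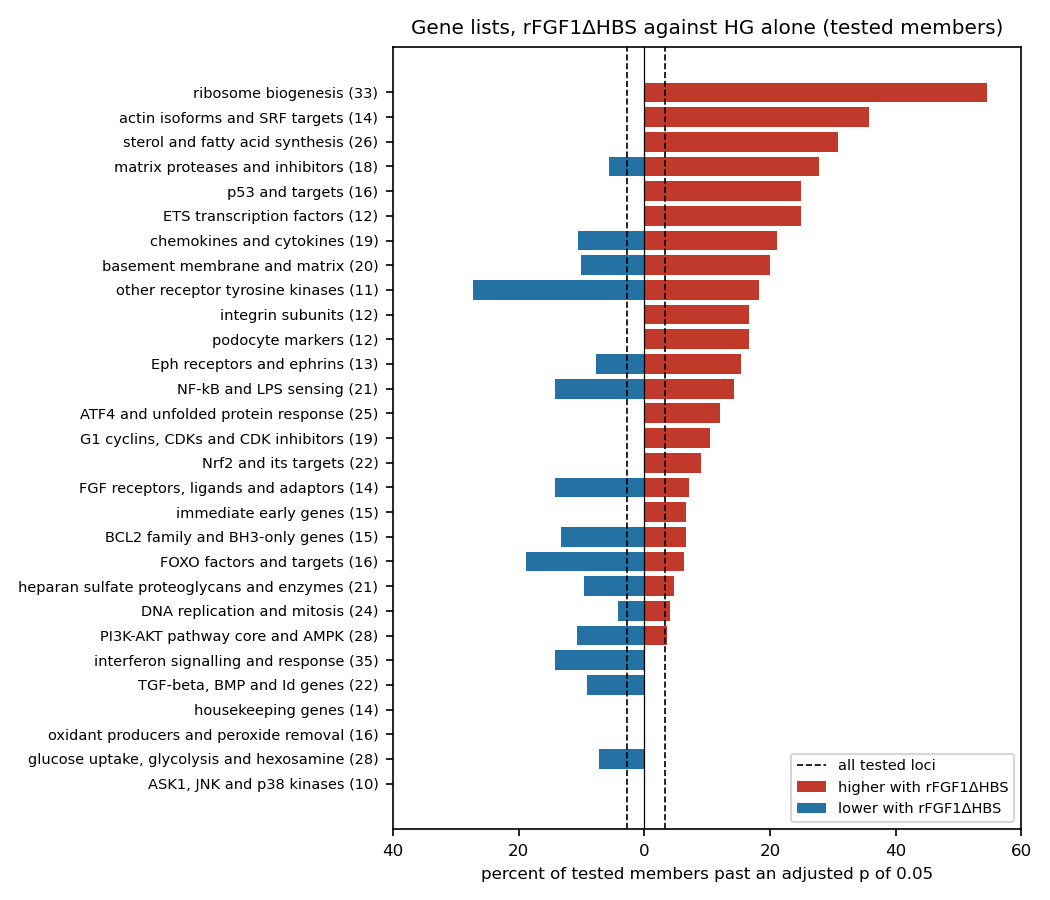
Bars give the percent of tested members past an adjusted p of 0.05, higher to the right and lower to the left, for the 29 lists with at least 10 tested members (number tested in brackets); dashed lines mark 3.31% and 2.83%, the shares of all tested loci. Ribosome biogenesis reaches 54.5% higher with none lower. The interferon list has lower members only, as do the glucose list and the list of TGF-β, BMP and Id genes.

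Of 14 tested actin isoforms and SRF targets 5 rose. All 14 had a higher mean with rFGF1ΔHBS, against 44.1% of all tested loci, and the median was 0.50. *Vcl* (vinculin, of focal adhesions) rose from 45.0 and 43.9 FPKM to 88.4 and 86.2 FPKM (log2 fold change 0.96, SE 0.05, adjusted p = 0.00582). *Actg1*, merged with *Gm23419*, rose from 375 and 385 FPKM to 589.9 and 646 FPKM (log2 fold change 0.70, adjusted p = 0.0152), and *Flna*, *Tpm4* and *Fhl2* rose by 0.47, 0.53 and 0.58. *Actb*, often used as a reference gene, had 857 and 1078 FPKM under HG and 1507 and 1723 FPKM with rFGF1ΔHBS (log2 fold change 0.74, adjusted p = 0.0572). None of the 14 housekeeping genes, *Actb* among them, passed. *Vcl* alone of the 5 passed in the fit of 4 libraries.

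Among 12 integrin subunits, *Itga3*, the laminin receptor subunit of podocyte foot processes (chromosome 11), rose from 65.1 and 64.2 FPKM to 146 and 159.9 FPKM (log2 fold change 1.23, SE 0.06, adjusted p = 0.00507), and its partner *Itgb1* from 193 and 187 FPKM to 234 and 224 FPKM (log2 fold change 0.26, adjusted p = 0.0494). *Itgb1* did not pass in the fit of 4 libraries (adjusted p = 0.101), and *Itgav* did (log2 fold change 1.06, adjusted p = 0.0490). Of 20 tested matrix genes 4 rose (20%) and 2 fell (10%). *Nid2*, which fell, passed the filter on mean FPKM only through the HG libraries, in which it is high, so nothing is read from the share that fell. Besides *Spp1*, *Cyr61* (CCN1) rose from 49.0 and 50.4 FPKM to 111 and 118 FPKM (log2 fold change 1.19, adjusted p = 0.00762), *Thbs1* by 0.48 (adjusted p = 0.0227) and *Fn1*, fibronectin, from 117 and 121 FPKM to 152 and 164 FPKM (log2 fold change 0.41, adjusted p = 0.0304). *Nid2*, a linker of the basement membrane, fell from 2.49 and 2.87 FPKM to 0.667 and 0.903 FPKM (log2 fold change -1.05, adjusted p = 0.0304), and *Lama1* fell from 10.3 and 9.70 FPKM to 5.48 and 6.27 FPKM (log2 fold change -0.68, adjusted p = 0.0257). *Spp1* and *Cyr61* kept their call in the fit of 4 libraries, in which *Thbs1* had an adjusted p of 0.0630, *Fn1* 0.0781, *Nid2* 0.0598 and *Lama1* 0.0677.

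Of 18 tested matrix proteases and inhibitors 5 rose and 1 fell, at a list median of 0.01. *Plau* (urokinase) went from 18.5 and 14.9 FPKM to 36.4 and 38.9 FPKM (log2 fold change 1.13, adjusted p = 0.0220) and *Plat* (tissue plasminogen activator) from 14.0 FPKM in both HG libraries to 32.4 and 27.1 FPKM (log2 fold change 1.03, adjusted p = 0.0182). The urokinase receptor *Plaur* rose from 5.72 and 5.37 FPKM to 10.2 and 10.5 FPKM (log2 fold change 0.79, adjusted p = 0.0173). *Mmp9*, a gelatinase, rose from 1.21 and 1.17 FPKM to 2.86 and 3.50 FPKM (log2 fold change 0.93, adjusted p = 0.0232). *Mmp11* fell, from 27.4 and 26.4 FPKM to 16.2 and 14.7 FPKM (log2 fold change -0.76, adjusted p = 0.0207). *Plau* and *Plat* had adjusted p of up to 0.0962 and 0.0830 when a library was left out. In the fit of 4 libraries *Plaur* kept its call, and *Plau* had an adjusted p of 0.0580, *Plat* 0.0564, *Mmp9* 0.0632 and *Mmp11* 0.0538.

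Of 19 tested chemokines and cytokines 4 rose and 2 fell. *Il33* passed the filter on mean FPKM only through the rFGF1ΔHBS libraries, in which it is high, so nothing is read from the count that rose. *Il34*, a ligand of CSF1R, rose from 1.94 and 2.08 FPKM to 6.75 and 6.63 FPKM (log2 fold change 1.35, SE 0.09, adjusted p = 0.0123), while *Csf1r* fell as given above. *Ccl20* rose from 3.83 and 4.36 FPKM to 11.1 and 9.65 FPKM (log2 fold change 1.16, adjusted p = 0.0158), the alarmin *Il33* from 0.390 and 0.572 FPKM to 2.16 and 2.20 FPKM (log2 fold change 1.10, adjusted p = 0.0197), and the monocyte chemokine *Ccl2* from 26.6 and 25.0 FPKM to 55.4 and 42.8 FPKM (log2 fold change 0.89, adjusted p = 0.0432). *Cxcl12* fell from 16.3 and 14.0 FPKM to 8.42 and 8.18 FPKM (log2 fold change -0.80, adjusted p = 0.0217), and the interferon-inducible *Cxcl10* fell from 28.8 and 26.9 FPKM to 18.4 and 19.0 FPKM (log2 fold change -0.55, adjusted p = 0.0234). *Il34* had 0.0531 to 0.0628 when any 1 of the HG or rFGF1ΔHBS libraries was left out, and in the fit of 4 libraries *Ccl20* had 0.0519, *Il33* 0.0559, *Ccl2* 0.0924, *Cxcl12* 0.0598 and *Cxcl10* 0.0587.

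Of 21 genes of NF-κB signalling and lipopolysaccharide sensing, 3 rose and 3 fell. *Tnfaip2* rose from 22.2 and 23.9 FPKM to 50.0 and 51.0 FPKM (log2 fold change 1.10, SE 0.18, adjusted p = 0.0455), the lipocalin *Lcn2* from 1.83 and 1.37 FPKM to 3.89 and 4.603 FPKM (log2 fold change 1.01, adjusted p = 0.0304) and the cyclooxygenase *Ptgs2* from 2.87 and 3.26 FPKM to 5.13 and 5.45 FPKM (log2 fold change 0.63, adjusted p = 0.0346). *Lbp*, the lipopolysaccharide-binding protein, fell from 26.3 and 25.6 FPKM to 14.6 and 17.4 FPKM (log2 fold change -0.67, adjusted p = 0.0378), the adhesion molecule *Vcam1* from 6.04 and 6.20 FPKM to 4.40 and 4.35 FPKM (log2 fold change -0.41, adjusted p = 0.0378), and *Nos2*, the inducible nitric oxide synthase, from 4.14 and 3.58 FPKM to 1.98 and 2.23 FPKM (log2 fold change -0.65, adjusted p = 0.0440). *Nfkbia*, which encodes IκBα, had 26.1 and 28.3 FPKM under HG and 21.2 and 22.5 FPKM with rFGF1ΔHBS (adjusted p = 0.0778). Of the 6 calls only *Tnfaip2* passed in the fit of 4 libraries, and it had 0.142 to 0.167 when any 1 of the HG or rFGF1ΔHBS libraries was left out.

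Of the 35 tested genes of interferon signalling and response 5 fell and none rose, in 4 loci, since *Ifit2* and *Ifit3* share a merged locus with *Ifit3b*. That locus, of antiviral tetratricopeptide proteins (chromosome 19), fell from 27.4 and 24.0 FPKM to 8.94 and 9.66 FPKM (log2 fold change -1.37, SE 0.10, adjusted p = 0.0142). *Usp18*, which removes ISG15 from proteins, fell from 4.55 and 4.47 FPKM to 2.45 and 2.28 FPKM (log2 fold change -0.71, adjusted p = 0.0230), and *Psmb8*, an immunoproteasome subunit, from 14.8 and 15.5 FPKM to 10.9 and 10.7 FPKM (log2 fold change -0.45, adjusted p = 0.0401). *Ifngr2*, a chain of the interferon gamma receptor, had 40.7 and 40.6 FPKM under HG and 22.1 and 23.7 FPKM with rFGF1ΔHBS but did not pass (adjusted p = 0.147). In the fit of 4 libraries the *Ifit2* and *Ifit3* locus kept its call and *Ifngr2* passed (adjusted p = 0.0430), while *Usp18* had 0.0559 and *Psmb8* 0.0654. The list median was -0.09, and 15 of the 35 were higher with rFGF1ΔHBS, so the list as a whole lay near the median of all loci.

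**Figure D4:**
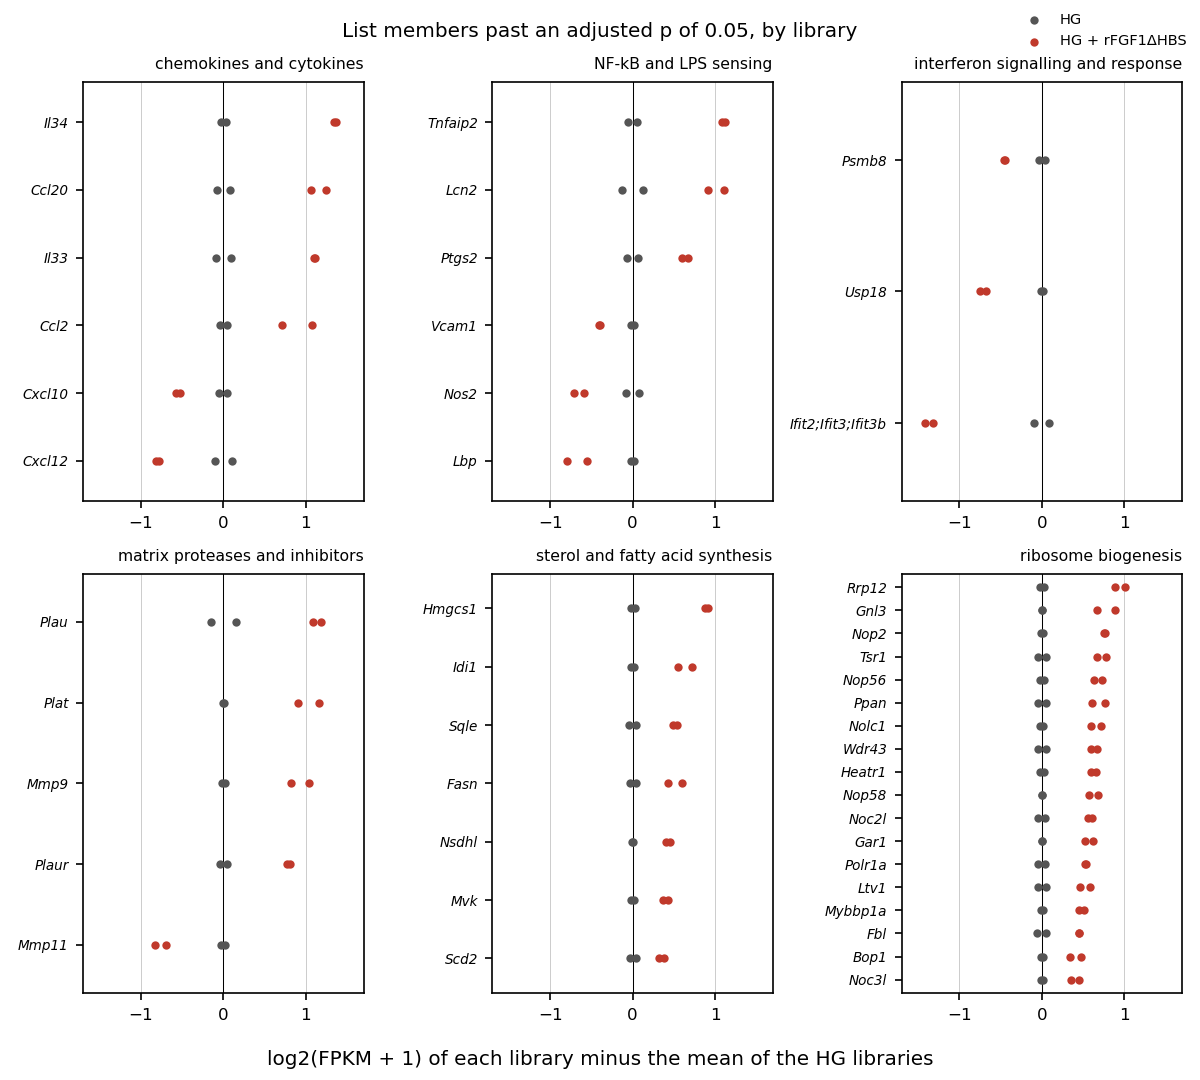
Each row is a list member past an adjusted p of 0.05, save those not reported here, and each point a library, as log2(FPKM + 1) minus the mean of the HG libraries (grey HG, red HG + rFGF1ΔHBS). The red points of chemokines and NF-κB genes lie on both sides of 0, those of the interferon loci below it, those of *Plau*, *Plat*, *Plaur* and *Mmp9* above it and of *Mmp11* below it, and those of the 18 ribosome biogenesis genes and the sterol genes above it.

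Of 22 tested Nrf2 genes 2 rose: *Nfe2l2*, which encodes Nrf2, from 28.5 and 31.7 FPKM to 42.7 and 42.8 FPKM (log2 fold change 0.49, adjusted p = 0.0304), and *Gsr*, the glutathione reductase, from 40.7 and 41.1 FPKM to 51.4 and 52.7 FPKM (log2 fold change 0.34, adjusted p = 0.0290). In the fit of 4 libraries they had adjusted p of 0.0780 and 0.0717. *Nqo1* lay below the filter, at 0.165 and 0.172 FPKM under HG and 0.261 and 0.317 FPKM with rFGF1ΔHBS. None of the 16 tested genes of oxidant production and peroxide removal passed, and *Sod2* had 5.02 and 5.83 FPKM under HG and 5.90 and 5.66 FPKM with rFGF1ΔHBS (log2 fold change 0.08, SE 0.09). Of 28 genes of glucose uptake, glycolysis and the hexosamine pathway 2 fell, *Sord*, the sorbitol dehydrogenase of the polyol pathway, from 22.8 and 21.9 FPKM to 10.3 and 9.45 FPKM (log2 fold change -1.10, adjusted p = 0.0152), and *Pfkm*, a phosphofructokinase, from 45.2 and 45.7 FPKM to 31.2 and 32.5 FPKM (log2 fold change -0.50, adjusted p = 0.0325). With only the 4 libraries *Pfkm* had an adjusted p of 0.0559, and *Sord* passed there but had up to 0.0742 when a library was left out. *Slc2a1*, the glucose transporter GLUT1, had 12.7 and 18.1 FPKM under HG and 30.9 FPKM in both rFGF1ΔHBS libraries (adjusted p = 0.0534).

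In the PI3K-AKT pathway and AMPK, 1 of 28 tested genes rose (3.57%) and 3 fell (10.7%), and the catalytic subunits of AMPK, the energy sensor kinase, moved in opposite directions. *Prkaa1* (α1) fell from 21.3 and 20.98 FPKM to 10.0 and 9.22 FPKM (log2 fold change -1.06, adjusted p = 0.0177), and *Prkaa2* (α2) rose from 1.24 and 1.251 FPKM to 4.58 and 4.06 FPKM (log2 fold change 1.24, adjusted p = 0.0177), so *Prkaa1* remained the more abundant. *Pik3cd* and *Pik3r2*, a catalytic and a regulatory subunit of PI3K, fell by 0.69 (adjusted p = 0.0304) and 0.39 (adjusted p = 0.0409). *Pik3cd* and *Pik3r2* had adjusted p of 0.0753 and 0.0632 in the fit of 4 libraries, and *Prkaa1* and *Prkaa2* passed there but had up to 0.0830 and 0.0777 when a library was left out. The FOXO list, of factors that AKT keeps out of the nucleus and their targets, had the lowest median of any list with at least 10 tested members, at -0.43. In it 12 of 16 had a lower mean and 4 a higher mean, against 44.1% of all tested loci with a higher mean. Of these FOXO genes, *Ccng2* fell from 24.6 and 25.5 FPKM to 16.5 and 17.2 FPKM (log2 fold change -0.54, adjusted p = 0.0190), and *Fbxo32* (atrogin-1) from 2.39 and 2.79 FPKM to 1.26 and 1.14 FPKM (log2 fold change -0.70, adjusted p = 0.0368). *Bcl2l11* is the third that fell, and *Gadd45a* rose from 4.73 and 4.71 FPKM to 7.26 and 7.73 FPKM (log2 fold change 0.57, adjusted p = 0.0346). None of these 4 passed in the fit of 4 libraries, where *Ccng2* had an adjusted p of 0.0564, *Fbxo32* 0.0809, *Bcl2l11* 0.0756 and *Gadd45a* 0.0580. *Foxo3* had 19.8 and 19.9 FPKM under HG and 12.6 and 7.17 FPKM with rFGF1ΔHBS (adjusted p = 0.106). None of the 10 tested kinases of the ASK1, JNK and p38 list passed, and *Map3k5*, which encodes ASK1, had a log2 fold change of 0.03 (SE 0.08).

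Of 16 p53 genes 4 rose and none fell, at a median of 0.45, namely *Ccng1*, *Plk2*, which rose from 41.7 and 37.2 FPKM to 71.5 and 69.5 FPKM (log2 fold change 0.82, adjusted p = 0.0168), *Zmat3* (0.65, adjusted p = 0.0142) and *Eda2r* (0.99, adjusted p = 0.0460), a share of 25.0% beside 3.31% of all tested loci. Of 25 genes of ATF4 and the unfolded protein response 3 rose, *Atf4* from 77.1 and 85.4 FPKM to 128 and 117 FPKM (log2 fold change 0.59, adjusted p = 0.0310), *Ddit4* by 0.73 (adjusted p = 0.0349) and *Sesn2* by 0.57 (adjusted p = 0.0263). Of 22 genes of TGF-β, BMP and Id signalling 2 fell, *Bmpr1a*, a BMP receptor, from 20.2 and 19.1 FPKM to 8.18 and 8.39 FPKM (log2 fold change -1.15, SE 0.07, adjusted p = 0.00879) and *Id4* from 3.07 and 3.16 FPKM to 1.10 and 0.862 FPKM (log2 fold change -1.05, adjusted p = 0.0200). *Id4* passed the filter on mean FPKM only through the HG libraries, in which it is high, so nothing is read from this count. *Id2* and *Id3*, also BMP targets, had log2 fold changes of -2.37 and -1.97 with standard errors of 0.93 and 0.53, and did not pass (adjusted p = 0.219 and 0.114). Of the 12 tested podocyte markers 2 rose, *Nes* (nestin) from 43.2 and 41.8 FPKM to 83.5 and 84.3 FPKM (log2 fold change 0.97, SE 0.04, adjusted p = 0.00507) and *Tjp1* (ZO-1) from 32.4 and 31.0 FPKM to 42.1 and 42.9 FPKM (log2 fold change 0.41, adjusted p = 0.0275). *Ccng1*, *Zmat3*, *Eda2r*, *Bmpr1a* and *Nes* kept their call with only the 4 libraries, but *Zmat3* and *Eda2r* had adjusted p of up to 0.0639 and 0.158 when a library was left out. In the same fit of 4 libraries *Plk2* had an adjusted p of 0.0519, *Atf4* 0.0781, *Ddit4* 0.0787, *Sesn2* 0.0569, *Id4* 0.0559 and *Tjp1* 0.0654. Complement (3 tested), mesangial (3), tubule (2) and endothelial markers (1) gave no call, and the 1 tested leukocyte marker, *Cd68*, shares a merged locus with the initiation factor *Eif4a1*, which rose by 0.37 (adjusted p = 0.0365).

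A group of 13 loci past the threshold had at least 1 of the 4 libraries listed at 0, 6 higher and 7 lower with rFGF1ΔHBS, and is given by its values with no fold change. *Sox4*, a SOX transcription factor, had 56.7 and 57.5 FPKM under HG and was listed at 0 in both rFGF1ΔHBS and both rFGF1WT libraries. *Irf2bp1*, a transcriptional corepressor, was listed at 0 under HG and had 19.2 and 23.1 FPKM with rFGF1ΔHBS, and *Gm3608* was listed at 0 under HG and had 29.4 and 30.1 FPKM. *Sox4* and *Irf2bp1* are single loci in the table, so no other locus of the same name held the missing signal. *Rpl17-ps10*, a pseudogene of the ribosomal protein RPL17, was listed at 0 in the HG and rFGF1WT libraries and had 65.2 and 62.2 FPKM with rFGF1ΔHBS. Pseudogenes share sequence with their parent genes, and the assignment of fragments between them is uncertain.

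In 3 of the 13, *Ehbp1*, *Tfap2a* and *A830018L16Rik*, the locus that changed is an assembled transcript with no Ensembl transcript. For *Ehbp1*, of endosome and actin linkage, this locus had 14.0 and 13.4 FPKM under HG and was listed at 0 with rFGF1ΔHBS, while the locus with Ensembl transcripts (chr11:22005828-22342292) had 4.28 and 4.08 FPKM under HG and 3.96 and 4.12 FPKM with rFGF1ΔHBS (log2 fold change -0.04, SE 0.07). For *Tfap2a*, an AP-2 transcription factor, the assembled locus had 11.7 and 12.1 FPKM under HG and was listed at 0 with rFGF1ΔHBS, and the annotated locus had 7.36 and 7.55 FPKM under HG and 6.63 and 6.02 FPKM with rFGF1ΔHBS (log2 fold change -0.21, adjusted p = 0.281). A gene-level change is thus not shown for either. The remaining loci were *Ing2*, *Zxdb*, *A830018L16Rik*, *Vdac3-ps1*, *Gm5451*, *Gm9845* and *Gm17828*, none above 13 FPKM in any of the 4 libraries. Outside the threshold, *Jund* had 59.5 and 5.33 FPKM under HG and was listed at 0 in both rFGF1ΔHBS libraries (adjusted p = 0.106), and *Junb* had 9.84 and 11.3 FPKM under HG and was likewise listed at 0 (adjusted p = 0.227).

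The 2 proteins, which differ in the heparan sulfate binding site, were given at the same dose and time and share the HG libraries as controls, so the test of interest is the one between them. On the same loci rFGF1WT gave 100 past the threshold against HG (48 higher, 52 lower, 0.948%) and 628 past the adjusted p (5.95%), 329 of them higher (3.12%). Between rFGF1ΔHBS and rFGF1WT 28 loci passed the threshold (0.265%) and 48 the adjusted p (0.455%), with an unadjusted p under 0.05 at 507 loci (4.8%). The filter left out the rFGF1WT libraries, so loci high only in those could be missed. With a mean FPKM of at least 1 over all 6 libraries, 37 loci passed the threshold between the proteins and 107 for rFGF1WT against HG. Of the 92 loci changed by rFGF1ΔHBS, 14 also differed between the proteins by the adjusted p, and of the 648 loci 21 did. For the others a difference was not detected, which does not show that the proteins act alike. *Etv5* had 7.72 and 8.31 FPKM with rFGF1WT, *Ccnd1* 40.2 and 39.5 FPKM and *Bmf* 1.37 and 1.65 FPKM, next to the rFGF1ΔHBS values given above, with adjusted p between the proteins of 0.957, 0.996 and 1.

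Of the 21 loci, 5 had a library at 0 (*Rpl17-ps10*, *Ehbp1*, *Gm5451*, *Tfap2a* and *Gm17828*), and of the other 16 all but *Fam207a* were lower with rFGF1ΔHBS than under HG. *Med26* and *Hoxa5* passed the filter on mean FPKM only through the HG libraries, in which they are high, so nothing is read from this count. *Med26*, a subunit of the Mediator complex, had 4.72 and 4.51 FPKM under HG, 0.549 and 0.599 FPKM with rFGF1ΔHBS and 4.29 in both rFGF1WT libraries (difference between the proteins -1.75 on the log2 scale, SE 0.07, adjusted p = 0.00647). *Atxn7l3*, of the SAGA deubiquitinase module, had 11.2 FPKM in both HG libraries, 4.40 and 4.46 FPKM with rFGF1ΔHBS and 10.6 and 10.4 FPKM with rFGF1WT (difference -1.08, adjusted p = 0.0108). *Gabpb2*, the partner of an ETS factor, had 12.8 FPKM in both HG libraries, 4.56 and 3.75 FPKM with rFGF1ΔHBS and 10.6 and 11.2 FPKM with rFGF1WT (difference -1.21, adjusted p = 0.0426). Because the loci were chosen by both tests, which share the rFGF1ΔHBS libraries, rFGF1WT values near those of HG largely follow from the choice.

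*Tsn*, an RNA- and DNA-binding protein, *Hdgfl3*, *Hoxa5*, *2810006K23Rik*, *Selenoi*, *Aar2*, *Chm*, *Armt1* and *Klf11* had the same pattern, and none of them passed against HG with rFGF1WT. *Hoxa5*, a homeobox factor, had 3.32 and 3.36 FPKM under HG, 0.440 and 0.661 FPKM with rFGF1ΔHBS and 3.59 and 3.52 FPKM with rFGF1WT (difference -1.56, SE 0.10, adjusted p = 0.0214). *Mxd4*, a repressor that pairs with MAX in competition with MYC, moved in opposite directions, with 2.31 and 2.42 FPKM under HG, 1.01 and 1.00 FPKM with rFGF1ΔHBS and 4.25 and 3.99 FPKM with rFGF1WT. It fell with rFGF1ΔHBS (log2 fold change -0.75, adjusted p = 0.0200), rose with rFGF1WT (log2 fold change 0.60, adjusted p = 0.0261) and differed between them by -1.35 (adjusted p = 0.0148). *Rrp7a*, of ribosome assembly, did likewise, with 21.4 and 20.9 FPKM under HG, 15.0 and 14.7 FPKM with rFGF1ΔHBS and 28.1 and 26.3 FPKM with rFGF1WT (difference -0.83, adjusted p = 0.0269). *Rbbp9*, a serine hydrolase, fell with both, from 20.7 and 21.7 FPKM to 12.5 and 12.8 FPKM with rFGF1ΔHBS and further to 2.54 and 2.92 FPKM with rFGF1WT (difference 1.87, adjusted p = 0.00647).

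*Fam207a* (chr10:77486661-77515785), which contributes to assembly of the small ribosomal subunit, was the 1 locus above 0 in all libraries that rose with rFGF1ΔHBS and differed between the proteins. It had 7.02 and 7.03 FPKM under HG, 17.9 and 20.8 FPKM with rFGF1ΔHBS (log2 fold change 1.34, SE 0.11, adjusted p = 0.0158) and 6.82 and 8.06 FPKM with rFGF1WT, and the difference between the proteins was 1.27 (adjusted p = 0.0495). The call of *Fam207a* against HG was lost without the first HG library, and its log2 fold change ranged from 1.23 to 1.44 over the alternatives. Just past the limit lay *Prkaa2*, with 1.07 and 1.42 FPKM with rFGF1WT (adjusted p between the proteins 0.0512), *Hmgcs1*, with 140.0 and 149 FPKM (0.0523), and *Pigyl*, with 6.79 and 6.26 FPKM against 10.6 and 6.83 FPKM under HG and 0.747 and 0.616 FPKM with rFGF1ΔHBS (0.0579).

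**Figure D5:**
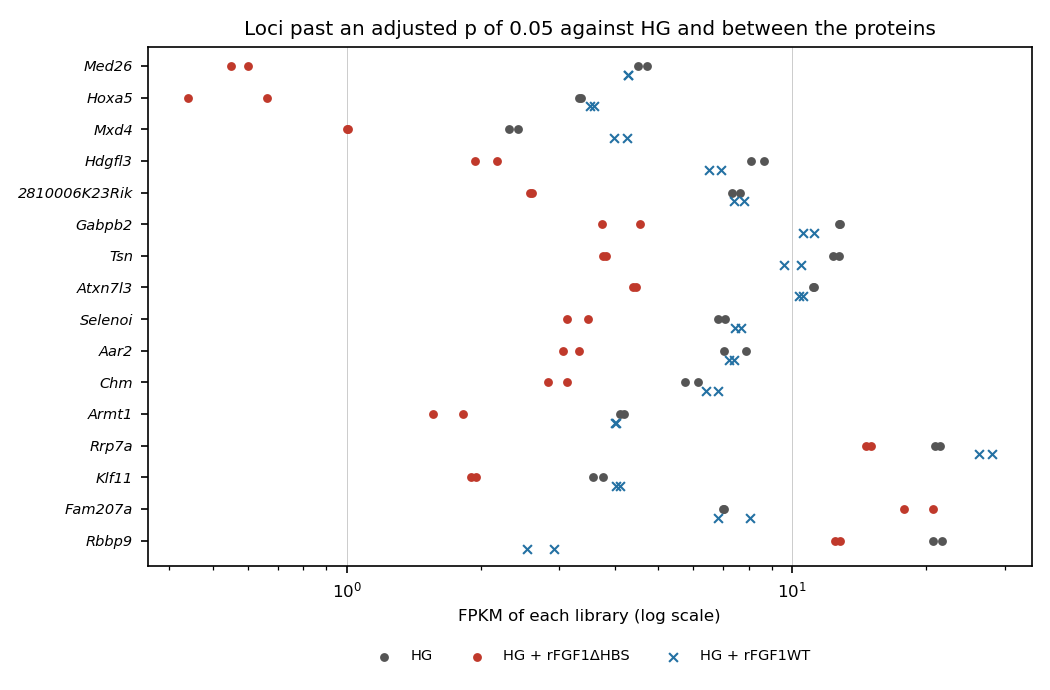
FPKM of each library on a log axis for the 16 loci above 0 in all 4 libraries that passed an adjusted p of 0.05 both for rFGF1ΔHBS against HG and for rFGF1ΔHBS against rFGF1WT; grey points are HG, red points HG + rFGF1ΔHBS and blue crosses HG + rFGF1WT. In most rows the crosses lie beside the grey points and the red points to the left, while *Fam207a* lies to the right and *Rbbp9* has its crosses furthest left.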

How the data were processed

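RNA was sequenced from 6 MPC libraries, 2 per group. The authors deposited 1 table of FPKM per locus, with no counts, and the submitters' processing notes name Bowtie 0.12.2, HISAT2 2.0, StringTie 1.3.0 and the build mm8; the paper's methods name edgeR. Strand use is not given in the sources used here. Of the 24469 loci 12977 carry identifiers assembled by the authors, 519 merge several gene names and 70 have none. The table holds no coordinates, so positions are those of GENCODE M21 (GRCm38), where 78602 of 78903 Ensembl transcripts (99.6%) were found. No per-sample column was left unused.

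Loci with a mean of at least 1 FPKM over the 4 libraries compared were tested on log2(FPKM + 1) with limma 3.58.1 (trended empirical Bayes, R 4.3.3), with all 6 libraries sharing 1 estimate of the spread (3 residual degrees of freedom) and Benjamini-Hochberg adjustment over 10554 loci. An exact permutation test of 2 against 2 libraries cannot go below 0.333. Summaries used pandas 2.3.3 and numpy 2.4.6 in Python 3.11.15, plots used matplotlib 3.10.9, and the fit was tested on simulated data. Depth is unknown, since FPKM keep no totals.

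Named genes were the 15 largest increases and decreases past the threshold with a name and above 0 in all 4 libraries, list members past the threshold, up to 4 members of each list with the smallest adjusted p, and the 6 most abundant loci with a library at 0. Other genes named were chosen after their values were seen. The comparison and the 37 gene lists were chosen with earlier results of these data known. Alternatives covered the pseudocount, the filter, zeros, scaling, the libraries in the fit, robust moderation, a replicate block, the fold limit and leaving out each library. The results of a few list members are not reported here, though the list counts and medians include them.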

Additional observations from a re-analysis of the deposited data

How the results depend on the processing

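None of the 92 loci changed sign under any alternative, and of the 200 single genes only *Cd59a*, which did not pass, did, from 0.13 to -0.63 without the first rFGF1ΔHBS library, but the number of calls depended on the settings. With a pseudocount of 0.1, 148 loci passed the threshold (73 higher, 75 lower), and without the 2-fold limit 648 did (349 higher, 299 lower). With a mean FPKM of at least 5, 30 loci were higher. By the adjusted p alone 396 loci passed with no filter and 194 with only the 4 libraries compared. Without the 2-fold limit 628 loci passed for rFGF1WT against HG and 48 between the proteins, and 18 passed between the proteins with a mean FPKM of at least 5. The cause of these differences was not tested.

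Leaving out 1 library at a time gave 103 to 139 loci past the threshold for rFGF1ΔHBS against HG (34 to 86 higher, 37 to 78 lower) and 123 to 193 by the adjusted p. It gave 87 to 147 loci for rFGF1WT against HG and 42 to 89 between the proteins. The medians of DNA replication, integrin and NF-κB genes, all within 0.05 of 0, changed sign under median-ratio scaling or quantile normalization. Leaving out a library also turned medians. That of the immediate early genes went from 0.33 to -0.05 without the first HG or the second rFGF1ΔHBS library. The median of the G1 cyclin list went from 0.02 to -0.01 without the first HG library.

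Same-numbered libraries shared little, with correlations of their deviations from the group means of 0.0954 (HG and rFGF1ΔHBS), 0.0207 (HG and rFGF1WT) and -0.00197 (rFGF1ΔHBS and rFGF1WT) over 10271 loci, so the numbers were not read as pairs. With a replicate block 36 loci passed the threshold for rFGF1ΔHBS against HG (22 higher, 14 lower), 39 passed by the adjusted p, 31 passed for rFGF1WT against HG and 6 between the proteins.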
